A study of Mus musculus with 2 samples.

Results

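Skeletal muscle surrounds the femur and makes up a large part of a longitudinal section through it. Its fibers differ in the isoforms of their contractile proteins and in how they supply ATP. Slow (type 1) fibers contain the slow myosin heavy chain *Myh7*, contract slowly, resist fatigue and rely mainly on mitochondrial oxidation. Fast fibers contain the myosin heavy chains *Myh2* (type 2A), *Myh1* (type 2X) or *Myh4* (type 2B). Type 2B fibers are the most glycolytic, while type 2A fibers are fast but oxidative. In mice, most limb muscles are predominantly fast, and slow fibers are concentrated in a few muscles such as the soleus and in the deep parts of others.

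The slow-fiber-rich muscle spots described here were found in 2 formalin-fixed sections of mouse femur, 1 Control and 1 Loaded, that were measured on a grid of barcoded spots with probes for the mouse transcriptome. Both femurs came from female bone cell reporter (BCR) mice, a line that marks bone-forming and bone-resorbing cells with fluorescent proteins. These mice received a mid-shaft femoral osteotomy at 12 weeks of age and were killed at 17 weeks of age, 5 weeks after surgery. From week 3 after surgery, the Loaded mouse underwent cyclic mechanical loading of the fracture 3 times per week and the Control mouse was sham-loaded. There was 1 mouse per condition, so loading, mouse, section and the muscles that happened to be cut cannot be told apart.

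Members were chosen from measured values. A spot had to lie under tissue but outside the bone region marked by the study, and to hold at least 500 unique molecular identifiers (UMIs, counted molecules). The 14 genes of the rule were 5 slow genes, 8 fast genes and the skeletal muscle actin gene *Acta1*. They had to supply at least 10% of the UMIs of a spot, and the slow genes at least 10% of the slow and fast UMIs together, a share called the slow fraction below. The rule was met by 27 of 1962 spots under tissue in the Control section and by 94 of 1436 in the Loaded section, or 121 of 3398 in all. They were compared with the muscle spots of the same section whose slow fraction was below 5%, called fast spots, of which there were 867 in the Control section and 425 in the Loaded section. A further 6 and 21 muscle spots had a slow fraction from 5% to 10% and entered neither group. Slow-rich spots held 180590 UMIs in the Control section and 634173 in the Loaded section, against 6367052 and 1711577 in fast spots. The median slow-rich spot held 5883 UMIs in the Control section and 6954 in the Loaded section, and the median fast spot 5380 and 3469. A spot covers a small area that can include several fibers together with vessels, nerve and connective tissue, so fewer fibers of a type and less RNA per fiber cannot be told apart.

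Every gene of the slow set was detected in nearly all members. These values chose the members and are given as a description only. The slow set consisted of the slow or cardiac heavy chain *Myh7*, the slow troponin subunits *Tnnc1* (calcium binding), *Tnnt1* (tropomyosin binding) and *Tnni1* (inhibitory), and the regulatory light chain *Myl2*. *Myh7* had a median of 71 UMIs per slow-rich spot in the Control section and 70.5 in the Loaded section, and a median of 0 and 1 in fast spots. It was detected in 27 of 27 and 94 of 94 slow-rich spots, and in 33.8% and 65.2% of fast spots. *Tnnc1* and *Tnnt1* had medians of 13 and 31 UMIs per slow-rich spot in the Control section and of 17.5 and 42.5 in the Loaded section. Fast genes were also present in every group. *Myh4*, the type 2B heavy chain, had a median of 30 UMIs per slow-rich spot in the Control section and of 7 in the Loaded section, against 389 and 188 in fast spots. Hence, slow-rich spots were mixed by the measure of the rule, with slow genes supplying 28.9% (Control) and 39.4% (Loaded) of all slow and fast UMIs in the members, and 0.317% and 0.577% in fast spots. The slow fraction of single members ranged from 12.2% to 64.1% (median 29.0%) in the Control section and from 10.2% to 79.8% (median 37.1%) in the Loaded section. The rule genes together supplied 13.1% (95% exact binomial interval 13.0 to 13.3%) and 13.2% (13.1 to 13.3%) of the UMIs of slow-rich spots, and 27.9% and 23.8% of those of fast spots. This interval, like all others below, covers counting error only.

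The sequences upstream of 4 genes that represent both ends of the comparison are shown as examples. They are the slow troponin gene *Tnnc1*, the slow essential light chain gene *Myl3*, the fast troponin gene *Tnnc2* and the fast myosin-binding protein gene *Mybpc2*. Each is 250 bases long, ends just before the annotated start of transcription in RefSeq (GRCm38.p6) and is written from 5′ to 3′ on the strand of the gene. Capitals mark E-boxes (CANNTG, the same letters on both strands), the motif bound by myogenic factors such as MyoD.
Tnnc1 (chr14:31208062-31208311, plus strand): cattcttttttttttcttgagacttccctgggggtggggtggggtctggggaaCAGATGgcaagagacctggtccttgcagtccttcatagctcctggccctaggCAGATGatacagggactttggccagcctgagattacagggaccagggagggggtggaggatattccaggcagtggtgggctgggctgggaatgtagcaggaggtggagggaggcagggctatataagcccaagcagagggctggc
Myl3 (chr9:110763428-110763677, plus strand): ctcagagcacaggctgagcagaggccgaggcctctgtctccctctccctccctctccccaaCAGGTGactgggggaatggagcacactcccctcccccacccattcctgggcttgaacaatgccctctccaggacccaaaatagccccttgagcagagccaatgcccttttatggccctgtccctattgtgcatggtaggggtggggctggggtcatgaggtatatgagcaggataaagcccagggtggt
Tnnc2 (chr2:164779735-164779984, minus strand): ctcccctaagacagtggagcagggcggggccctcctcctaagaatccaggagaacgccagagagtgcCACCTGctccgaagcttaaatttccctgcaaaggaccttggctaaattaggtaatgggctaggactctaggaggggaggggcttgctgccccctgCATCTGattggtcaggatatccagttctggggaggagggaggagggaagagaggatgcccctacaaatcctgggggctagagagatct
Mybpc2 (chr7:44524670-44524919, minus strand): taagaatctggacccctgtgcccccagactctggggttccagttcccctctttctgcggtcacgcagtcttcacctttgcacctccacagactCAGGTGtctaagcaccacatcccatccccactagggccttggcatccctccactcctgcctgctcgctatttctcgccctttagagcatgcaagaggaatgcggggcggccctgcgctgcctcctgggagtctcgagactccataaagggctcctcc
There were 2 E-boxes upstream of *Tnnc1*, 1 upstream of *Myl3*, 2 upstream of *Tnnc2* and 1 upstream of *Mybpc2*, and 66.2% of 32841 annotated promoters of this length had at least 1. The letters CTANNNNTAG, a core of the site of MEF2 factors, occurred in none of the 4 windows, in 2 of 9 promoters of the slow sarcomere list outside the rule, in 0 of 5 promoters of the slow rule genes, and in 3.2% of all promoters. These matches describe the letters and are not measured binding sites.

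Slow-rich spots lay mainly in a few patches of adjoining spots rather than scattered through the fast muscle. In the Control section, 24 of 27 members formed 1 patch that measured 850 by 433 μm between its outermost spots and lay 100 to 866 μm from the nearest bone region spot. Of its 20 neighbors outside the patch, 17 were not muscle by the rule, 3 belonged to the bone region and 0 were fast spots. The patch reached the edge of the spot grid, so its full extent was not measured. Spots that were not muscle by the rule could still hold slow genes. In this section, 22 spots with a slow fraction of at least 10% but a rule gene share of 5% to 10% adjoined a member. The outline of the patch therefore also depended on the limit for the share. On this side of the bone region lay 26 of the 27 slow-rich spots and 0 of the 867 fast spots. The other 3 members were single spots. Of these, 2 lay on the same side, with slow fractions of 64.1% and 49.6%, and 1 lay within the fast muscle on the opposite side, 520 μm from the bone region, with a slow fraction of 12.2% and 19597 UMIs. Its 6 neighbors were 4 fast and 2 intermediate spots.

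In the Loaded section, the members formed 15 patches, of which 10 were single spots. The largest patch comprised 56 spots over 1500 by 433 μm, 608 to 2000 μm from the bone region. Of its 26 neighbors, 0 were fast spots, 4 were intermediate and 22 were not muscle by the rule. Across this section, 59 spots with a slow fraction of at least 10% but a rule gene share of 5% to 10% adjoined a member. A second patch of 18 spots lay on the opposite side of the bone region, 2066 to 2427 μm away, bordered 3 fast and 3 intermediate spots, and also reached the edge of the grid. A further patch, the third, had 6 spots and lay 173 to 436 μm from the bone region. The slow fraction was 36.4% in the first patch, 35.1% in the second and 66.5% in the third. On the side of the bone region with fewer fast spots lay 70 of the 94 slow-rich spots and 28 of the 425 fast spots. In both sections, therefore, the side that held most slow-rich spots was the one that held the fewest fast spots. No barcode of a slow-rich spot was shared between the sections, although 557 barcodes of spots under tissue were.

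**Figure D1:**
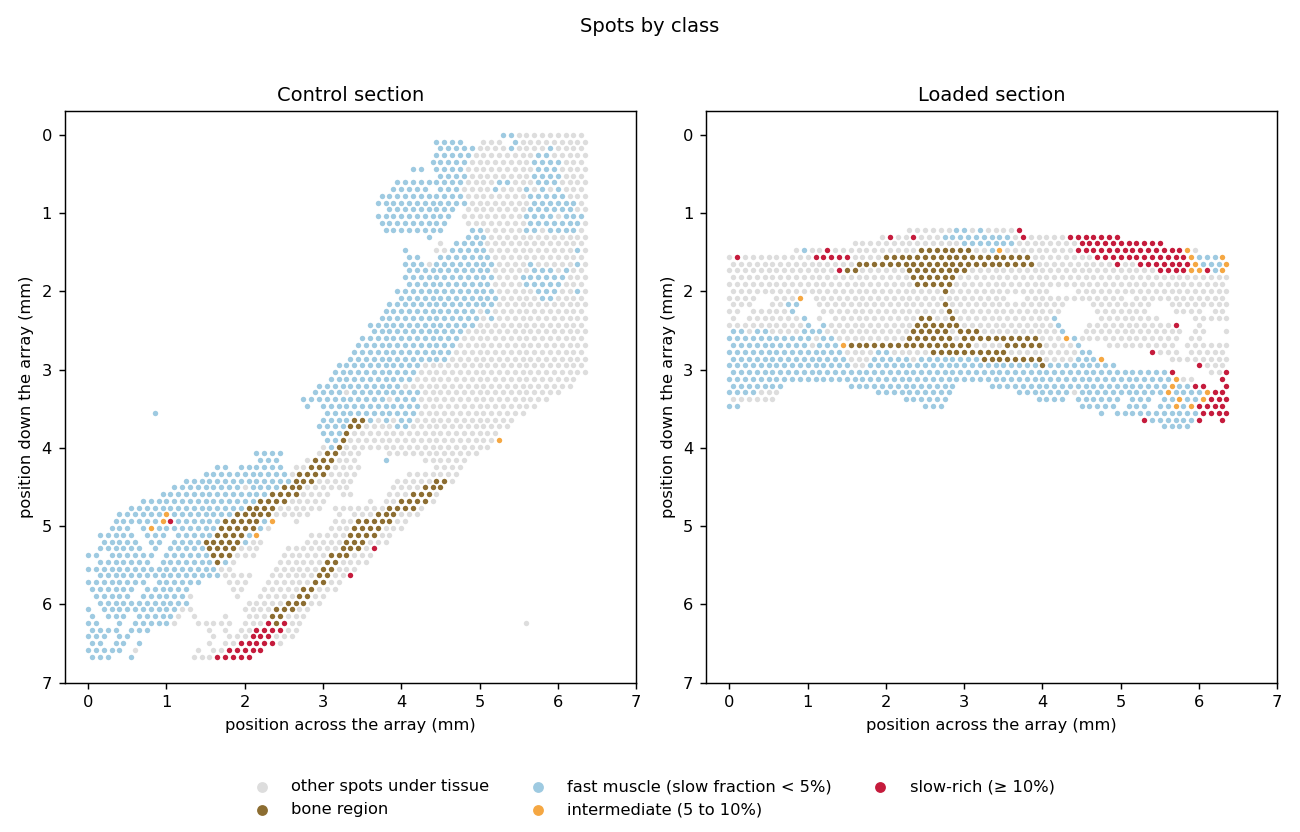
Position of every spot under tissue on the array in millimeters, for the Control section (left) and the Loaded section (right), colored by class. The largest patch holds 24 of the 27 slow-rich spots in the Control section and 56 of the 94 in the Loaded section, and neither patch adjoins a fast spot.

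Slow genes were also detectable outside the members. Among all fast and intermediate spots, the slow fraction was highest next to a slow-rich spot. It was 3.29% in the 6 Control spots within 110 μm of the nearest member, all of them neighbors of the single spot in the fast muscle, and 0.0726% in the 644 spots more than 1010 μm away. In the Loaded section, it was 4.95% in 23 spots within 110 μm and 0.231% in 267 spots more than 1010 μm away. The values between these distances declined in every step in both sections. At each of these distances, the slow fraction was lower in the Control section than in the Loaded section, and the mouse, the muscles cut and the loading cannot be told apart as its source.

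In the Control section, the limit on the slow fraction passed through few spots. In the Loaded section, spots lay close to this limit on both sides. The limit on the share of the rule genes passed through many spots in both sections. The Control members with the lowest slow fractions had 12.2%, 16.1% and 19.1%, and the closest muscle spots outside had 8.56%, 6.99% and 6.7%. In the Loaded section, these values were 10.2%, 10.3% and 10.3% inside and 9.99%, 8.87% and 8.54% outside. A slow fraction of at least 10% together with a rule gene share of 5% to 10% was found in 56 Control spots and 240 Loaded spots, of which 22 and 59 adjoined a member. Such spots fell below the limit and are not described further.

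**Figure D2:**
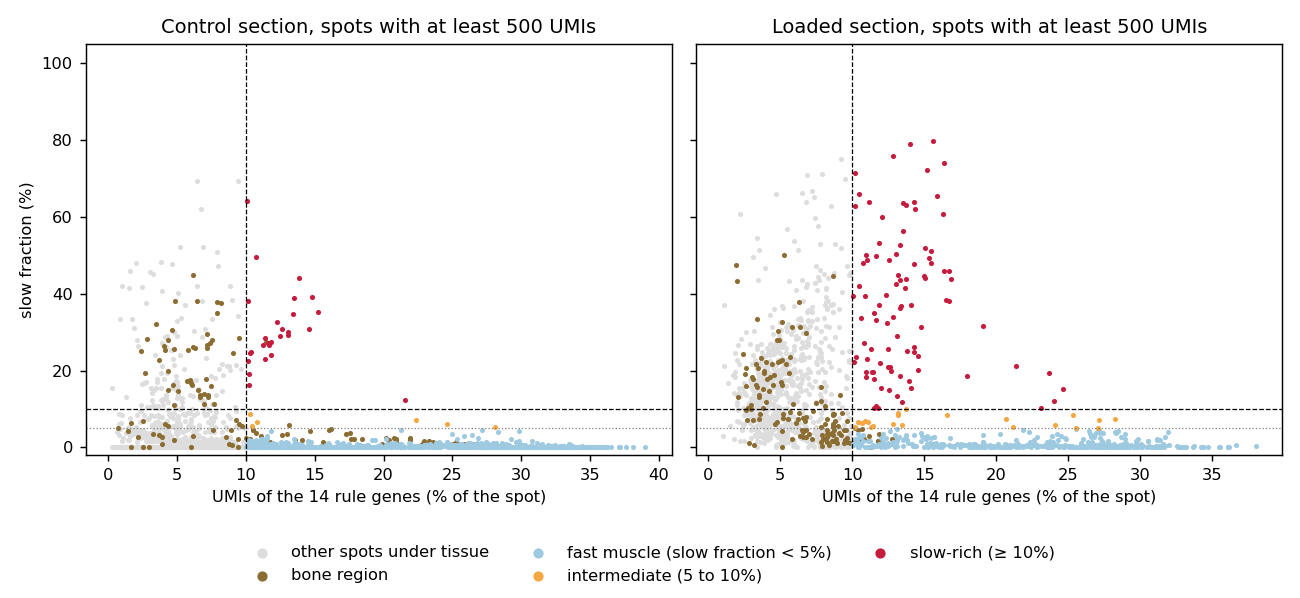
Slow fraction (vertical axis, percent) against the share of UMIs from the 14 rule genes (horizontal axis, percent) in spots with at least 500 UMIs of the Control section (left) and the Loaded section (right). Dashed lines mark 10% on both axes and the dotted line a slow fraction of 5%; slow-rich spots lie to the upper right of the dashed lines, and many spots with high slow fractions lie left of the vertical line.

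Gene expression was then compared between slow-rich and fast spots within each section. On the side of the bone region with fewer fast spots lay 26 of 27 slow-rich and 0 of 867 fast spots in the Control section. In the Loaded section, 70 of 94 and 28 of 425 lay there. Fiber type, side of the bone region and the muscle cut therefore cannot be told apart in the ratios below. The UMIs of a group were added up and divided by the sum of the size factors of its spots, giving a normalized count for a spot of average depth. The log2 ratio of slow-rich over fast is given with a 95% exact conditional binomial interval. The spots of a section are not independent of each other, so no test was made, and the second section repeats the comparison in another mouse. Outside the rule, 8899 genes had at least 20 UMIs over both groups in each section. Of these, 1088 (12.2%) were at least 2-fold higher and 1250 (14%) at least 2-fold lower in slow-rich spots of the Control section. In the Loaded section, these numbers were 345 (3.88%) and 540 (6.07%). In both sections at once, 135 genes (1.52%) were at least 2-fold higher and 180 (2.02%) at least 2-fold lower. The median log2 ratio of all genes was -0.05 in the Control section and -0.03 in the Loaded section. The ratio had the same sign in both sections for 53.3% of genes. A gene had a median of 7 UMIs in the Control slow-rich spots and of 22 in the Loaded slow-rich spots, so single ratios of low genes carry wide counting intervals. Below, the named genes are those with the largest ratios in both sections among 5902 genes with at least 50 UMIs, for which every one of 4 blocks of slow-rich spots lay on the same side of every one of 4 blocks of fast spots. Blocks were formed by dividing the spots of a group into 4 neighboring parts of equal number. This held for 40 genes higher and 146 lower in slow-rich spots. Among all 8899 genes, the blocks were apart in this way for 45 higher genes (0.506%) and 163 lower genes (1.83%). The UMI limits apply to both groups together, and fast spots held more UMIs in both sections. A gene high in fast spots could pass through that group alone, and few UMIs in slow-rich spots then gave low blocks. The numbers of higher and lower genes therefore cannot be compared with each other.

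**Figure D3:**
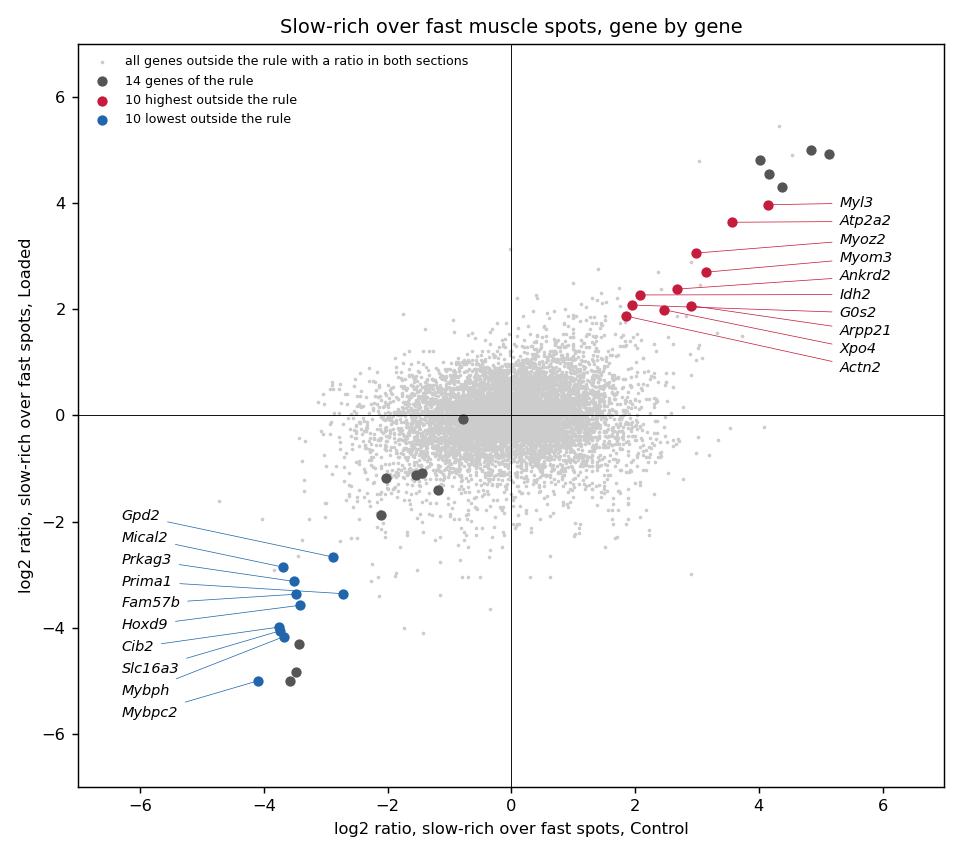
Log2 ratio of normalized counts in slow-rich over fast muscle spots in the Control section (horizontal) and the Loaded section (vertical), with 1 point per gene. The 10 highest genes outside the rule reach from 1.86 to 4.15 in the Control section, the 10 lowest from -4.09 to -2.72, and most other genes lie near 0. The few light gray points beyond the colored ones had fewer than 50 UMIs or overlapping blocks, and the dark gray points are the rule genes.

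Of the 10 highest genes outside the rule, 5 belonged to the slow lists, namely *Myl3*, *Myoz2*, *Myom3*, *Ankrd2* and *Atp2a2*. *Myl3* (chr9:110741861-110769798, GRCm38, GENCODE M21), the essential light chain that accompanies *Myh7*, had a normalized count of 11.1 in slow-rich and 0.624 in fast spots of the Control section, and of 10.1 and 0.641 in the Loaded section. Its log2 ratio was 4.15 (3.96 to 4.34) and 3.97 (3.77 to 4.18). *Atp2a2* (chr5:122453513-122502225), the calcium pump SERCA2 of slow and cardiac muscle, had 24.3 against 2.06 in the Control section and 24.7 against 1.98 in the Loaded section. These correspond to log2 ratios of 3.56 (3.44 to 3.68) and 3.64 (3.53 to 3.76). In the Control section, the slow-rich blocks ranged from 8.09 to 12.5 for *Myl3* and from 20.5 to 26.8 for *Atp2a2*. That they lay above all fast blocks was a condition for naming these genes.

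Of the others, *Myoz2* (calsarcin-1, a Z-disc protein of slow and cardiac muscle) had log2 ratios of 2.99 in the Control section and 3.06 in the Loaded section. *Myom3*, an M-band protein, had 3.15 and 2.70, with 39 and 180 UMIs in the slow-rich spots. *Ankrd2*, a stretch-responsive ankyrin repeat protein of the sarcomere, had 2.67 and 2.38. *Actn2*, the Z-disc alpha-actinin found in all fiber types, had 1.86 and 1.87, whereas the fast alpha-actinin *Actn3* belonged to the rule. *Idh2* (chr7:80094846-80115392), the mitochondrial NADP-dependent isocitrate dehydrogenase, had a normalized count of 7.03 against 1.66 and of 7.62 against 1.58, with log2 ratios of 2.08 (1.88 to 2.28) and 2.27 (2.12 to 2.42). *G0s2*, an inhibitor of triglyceride breakdown, had 1.95 and 2.08. *Arpp21* (an RNA-binding phosphoprotein known mainly from brain) had 2.90 and 2.07. The nuclear export receptor *Xpo4* had 2.47 and 1.99, from only 19 and 50 UMIs in the slow-rich spots. For each of these 10 genes, the ratios of the 2 sections differed by less than 1 log2 unit. Below the limit of 50 UMIs, and chosen after their values were seen, *Strit1* (the micropeptide DWORF, which activates the calcium pump of slow and cardiac muscle) had 13 UMIs in slow-rich and 16 in fast spots of the Control section and 57 and 3 in the Loaded section, or log2 ratios of 4.32 and 5.45. *Rspo3*, a secreted enhancer of Wnt signaling, had 5 and 15, and 24 and 2 UMIs, or log2 ratios of 3.03 and 4.79.

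The 10 lowest genes included proteins of the fast thick filament and of glycolytic metabolism. *Mybpc2* (chr7:44501699-44524656), the fast myosin-binding protein C, had a normalized count of 2.54 in slow-rich and 43.3 in fast spots of the Control section, and of 0.663 and 21.2 in the Loaded section. Its log2 ratio was -4.09 (-4.41 to -3.79) and -5.00 (-5.29 to -4.72). *Mybph*, the related myosin-binding protein H, had -3.68 and -4.17. Patches differed widely in both genes. The largest Control patch had 4 of the 26 Control *Mybph* UMIs (-6.07) and a *Mybpc2* ratio of -4.33, and the first, the second and the third Loaded patch had *Mybpc2* ratios of -6.18, -2.44 and -6.47. *Slc16a3* (chr11:120948480-120960868), the lactate exporter MCT4 of glycolytic fibers, had 6 and 8 UMIs in slow-rich spots against 1972 and 307 in fast spots, or log2 ratios of -3.74 (-5.19 to -2.62) and -4.06 (-5.28 to -3.06). *Prkag3*, the gamma subunit of AMP-activated kinase found in fast glycolytic muscle, had -3.51 and -3.13. *Gpd2*, the mitochondrial glycerol-3-phosphate dehydrogenase, had -2.88 and -2.67.

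*Cib2*, a calcium- and integrin-binding protein, had log2 ratios of -3.76 and -3.99. *Fam57b*, a lipid-synthesis membrane protein, had -3.48 and -3.37, and *Mical2*, an actin-oxidizing enzyme, had -3.69 and -2.86. *Prima1*, the membrane anchor of acetylcholinesterase, had 1 and 3 UMIs in slow-rich spots and log2 ratios of -2.72 (-8.03 to -0.22) and -3.36 (-5.67 to -1.75). *Hoxd9*, a homeobox gene that patterns the limb along its length, had 1 and 2 UMIs against 263 and 55 in fast spots, with ratios of -3.42 (-8.73 to -0.93) and -3.58 (-6.66 to -1.65). In the Control slow-rich spots, *Fam57b* and *Mical2* also had 2 UMIs each, *Prkag3* 4, *Gpd2* 5 and *Cib2* 6, so all of these ratios rested on very few molecules.

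Sarcomere genes that the rule did not use separated by isoform. Of 8 genes of the slow sarcomere list with enough UMIs (9 were measured), 6 were at least 2-fold higher in both sections, beside 1.52% of all genes, and the median was 2.83 in the Control section and 2.55 in the Loaded section. They were *Myl3*, *Myoz2*, *Myom3*, *Ankrd2*, the muscle LIM protein *Csrp3* (1.74 and 2.41) and the slow-tonic heavy chain *Myh7b*. *Myh7b* had 19 UMIs in slow-rich and 20 in fast spots of the Control section and 52 and 4 in the Loaded section, corresponding to log2 ratios of 4.54 and 4.91. The Z-disc protein gene *Myot* (-0.83 and 0.19) and *Smpx* (-0.06 and 0.65) did not share this difference.

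Of 10 genes of the fast sarcomere list, 6 were at least 2-fold lower in both sections, beside 2.02% of all genes, with a median of -1.68 and -1.58. Tropomyosin *Tpm1* had a normalized count of 33.3 against 163 in the Control section and 20.2 against 61.5 in the Loaded section. *Myoz1*, the fast calsarcin, had log2 ratios of -2.17 and -2.10. The type 2X heavy chain *Myh1* had -1.44 and -2.01. The fast inhibitory troponin *Tnni2* had -1.69 and -0.84.

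*Myh2*, the heavy chain of the fast oxidative type 2A fibers, was the exception of the fast list and differed in the other direction. Its normalized count was 33.7 in slow-rich and 6.32 in fast spots of the Control section, and 29.6 and 5.70 in the Loaded section. The log2 ratio was 2.42 (2.32 to 2.51) and 2.38 (2.30 to 2.45). In the Control section, the slow-rich blocks (15.8 to 44.1) lay above the fast blocks (1.11 to 12.9). In the Loaded section, they overlapped (19.5 to 36.1 and 0.619 to 21.6). The levels of *Myh7* and *Myh4* in these spots were set by the rule, those of *Myh2* and *Myh1* were not.

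Genes shared by all fiber types had smaller ratios as a list. Of 17 common sarcomere genes, 3 were at least 2-fold higher in both sections, beside 1.52% of all genes, all 3 with blocks apart, and 1 was at least 2-fold lower, beside 2.02%. The median of the list was -0.33 in the Control section and 0.63 in the Loaded section, and 0.19 and 0.85 with library totals in place of size factors. Library totals moved the median of all genes from -0.05 to 0.47 in the Control section and from -0.03 to 0.20 in the Loaded section, so the list lay below all genes in the Control section and above them in the Loaded section with either scaling. Titin *Ttn* had log2 ratios of -1.16 and 0.13, the intermediate filament *Des* -0.33 and 0.33, and beta-tropomyosin *Tpm2* 0.21 and 0.63. The 3 higher genes were *Actn2*, given above, the leiomodin *Lmod2*, which lengthens thin filaments (1.27 and 1.85), and the small heat shock protein *Cryab* (1.44 and 1.65).

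**Figure D4:**
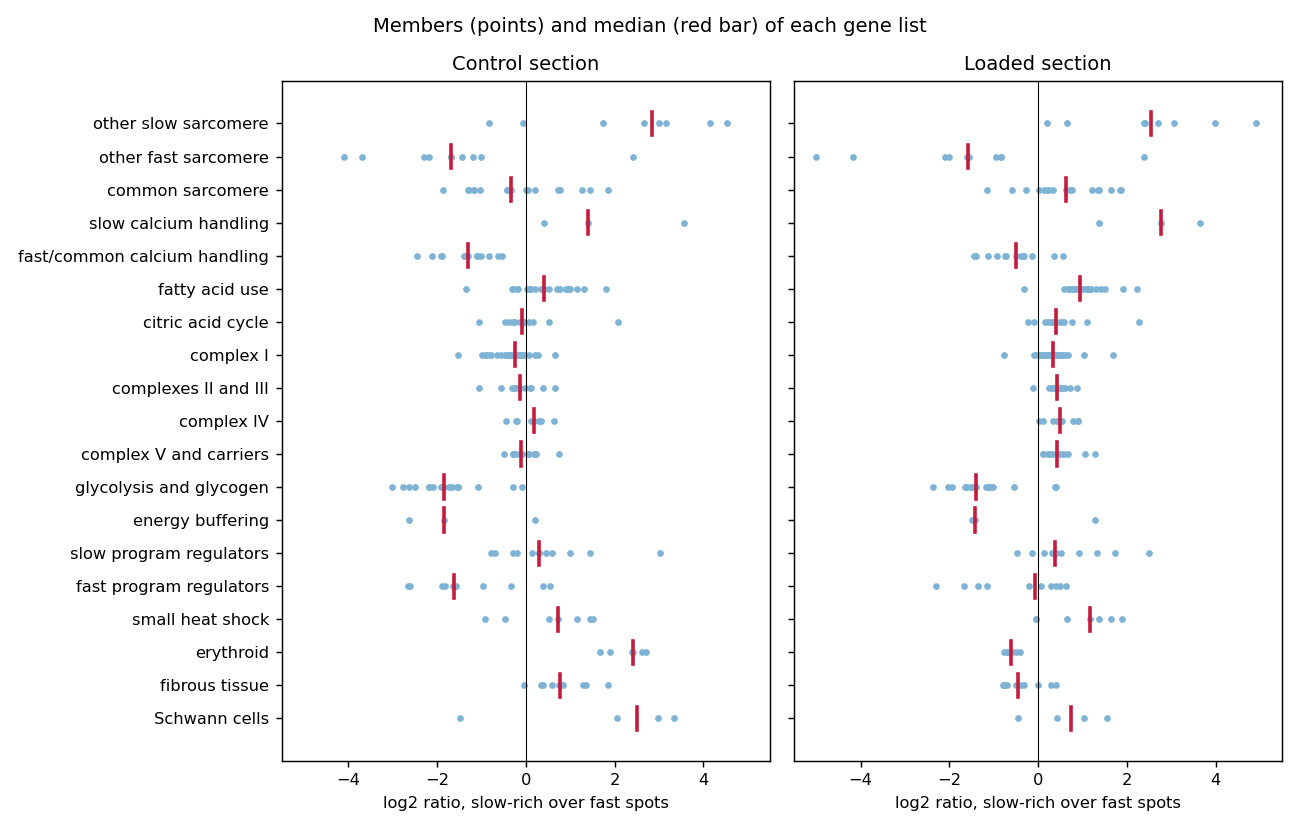
Log2 ratio of slow-rich over fast muscle spots for the members of 19 gene lists (points) and their median (red bar), in the Control section (left) and the Loaded section (right). The other slow sarcomere genes have medians of 2.83 and 2.55, glycolysis and glycogen genes of -1.84 and -1.39, and the erythroid list lies right of 0 in the Control section only.

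Calcium handling genes differed by isoform as well. Besides *Atp2a2*, the calcium store protein *Casq2* of slow and cardiac muscle had log2 ratios of 1.40 and 2.76, and the pump inhibitor sarcolipin (*Sln*) 0.40 and 1.38. The median of 3 slow genes with enough UMIs was 1.40 and 2.76. Of 13 calcium genes of fast or all fibers, 3 were at least 2-fold lower in both sections, beside 2.02% of all genes, and 0 higher, with medians of -1.30 and -0.50. *Casq1*, the fast calsequestrin, had a normalized count of 10.4 against 39.3 in the Control section and 7.77 against 20.4 in the Loaded section. *Cacng1*, a subunit of the muscle calcium channel, had -2.11 and -1.44, and the junctophilin *Jph2* had -1.09 and -1.14. *Ryr1*, the release channel, had -1.10 and -0.34.

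Small heat shock proteins protect the filaments of active muscle. Of 7 measured genes of this family, 3 were at least 2-fold higher in both sections, beside 1.52% of all genes. *Hspb7* had a normalized count of 13.7 against 4.77 in the Control section and 21.5 against 5.86 in the Loaded section, or log2 ratios of 1.52 and 1.88. *Cryab* (alpha-B crystallin) had 1.44 and 1.65, and *Hspb6* had 1.15 and 1.36. *Hspb8* was close to its level in fast spots, at -0.47 and -0.06.

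Transcription factors and coactivators that control fiber type were measured at low counts. Of 12 genes of the slow program, 3 were at least 2-fold higher in both sections and 0 lower, beside 1.52% of all genes higher in both and 12.2% in the Control section alone. These were *Tbx1* (3.03 and 1.33), *Prox1* (1.45 and 1.72) and the estrogen-related receptor *Esrrg* (1.00 and 2.50), with 23, 4 and 4 UMIs in the Control slow-rich spots, and 0 genes of the list had blocks apart in both sections. The others included *Mef2c* (-0.78 and 0.13), *Esrra* (0.29 and 0.40) and *Ppargc1a*, the coactivator of mitochondrial biogenesis (0.60 and 0.93). Of the list, *Esrra* had the most UMIs in the Control slow-rich spots and *Mef2c* in the Loaded slow-rich spots. Of 10 genes of the fast program with enough UMIs, 4 were at least 2-fold lower in both sections, beside 2.02% of all genes, and all 4 had blocks apart, beside 1.83%. The median was -1.61 in the Control section but -0.07 in the Loaded section, where 5 of 10 had ratios above 0. *Nfix*, a factor of the fetal fast program, had -0.34 and 0.48. The large Maf factors *Mafa* and *Maf*, which activate the type 2B heavy chain, had log2 ratios of -2.60 and -2.31, and of -1.64 and -1.67. *Sox6*, a repressor of slow genes, had -1.89 and -1.36, and the ubiquitin ligase *Trim63* had -1.58 and -1.15. Myostatin (*Mstn*), which limits muscle growth, had 0 UMIs in slow-rich and 406 in fast spots of the Control section, and 8 and 72 in the Loaded section. With 3 UMIs over the group in place of 0, its log2 ratio was -2.46 in the former, where the interval of the observed count reached up to -2.16, and it was -1.96 in the latter.

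Genes of glycolysis and glycogen use were lower in slow-rich spots, and this was the most uniform difference among the metabolic lists. Of 17 genes with enough UMIs, 14 were at least 2-fold lower in both sections, beside 2.02% of all genes, and 0 were higher. Of these 14, all except the fructose bisphosphatase *Fbp2* had blocks apart in both sections. The median was -1.84 and -1.39. The glycogen phosphorylase *Pygm* had a normalized count of 9.06 against 50.9 in the Control section and 6.70 against 20.4 in the Loaded section. *Eno3*, the muscle enolase, had 20.3 against 76.3 and 17.0 against 44.5. Aldolase (*Aldoa*, identifier ENSMUSG00000030695, a symbol that 2 entries share) had log2 ratios of -2.18 and -1.49, and phosphofructokinase *Pfkm* -1.72 and -1.07. The cytosolic glycerol-3-phosphate dehydrogenase *Gpd1* had -2.77 and -2.36. Hexokinase 2 (*Hk2*, -0.09 and 0.41) and glycogen synthase (*Gys1*, -0.29 and 0.37) did not share the difference. Among energy-buffering genes, the cytosolic creatine kinase *Ckm* had 102 against 365 and 77.4 against 207, or log2 ratios of -1.84 and -1.42, and AMP deaminase *Ampd1* had -2.63 and -1.49.

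Most genes for the uptake and oxidation of fatty acids had ratios above 0. Of 23 genes, 18 had a log2 ratio above 0 in the Control section and 22 in the Loaded section, beside 47.8% and 47.6% of all genes. At least 2-fold higher in both were 4, beside 1.52% of all genes, and 0 had blocks apart in both sections, with medians of 0.40 and 0.95. *Fabp3*, the fatty acid-binding protein of heart and oxidative muscle, had a normalized count of 6.20 against 2.49 in the Control section and of 7.23 against 1.55 in the Loaded section. Lipoprotein lipase (*Lpl*) had log2 ratios of 1.00 and 1.90, the transporter *Cd36* had 0.41 and 1.51, and the carnitine acyltransferase *Cpt2* had 1.16 and 1.11. *Pdk4*, which restrains pyruvate oxidation, had -1.34 and 0.76. Myoglobin (*Mb*), the oxygen store of oxidative fibers, had 14.3 against 7.54 and 10.6 against 2.88, or log2 ratios of 0.92 and 1.88. The muscle carbonic anhydrase *Car3* had -0.28 and 0.23.

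The citric acid cycle and the respiratory chain gave no common direction on this scale, except complex IV, whose median was above 0 in both sections. The citric acid cycle list had a median of -0.08 in the Control section and 0.40 in the Loaded section. *Idh2* alone among its 13 genes was at least 2-fold higher in both, beside 1.52% of all genes. Medians were -0.25 and 0.33 for complex I, -0.13 and 0.43 for complexes II and III, 0.19 and 0.50 for complex IV, and -0.10 and 0.43 for complex V and the carriers. The citrate synthase *Cs* had log2 ratios of -0.08 and 0.40 and the cytosolic malate dehydrogenase *Mdh1* 0.53 and 1.11. The complex I subunits *Ndufb10* and *Ndufs7* had -0.10 and 0.42, and -0.04 and 0.19. *Sdhb* of complex II had -0.13 and 0.52 and *Uqcrc1* of complex III 0.38 and 0.55. The ADP/ATP carrier *Slc25a4* had -0.15 and 0.46 and the ATP synthase subunit *Atp5e* -0.49 and 0.11. *Cox8b*, a subunit of cytochrome oxidase, had 0.35 and 0.90, *Cox6a2*, the muscle subunit of cytochrome oxidase, had -0.20 and 0.78, and the mitochondrial creatine kinase *Ckmt2* had 0.20 and 1.29. For all of these lists but complex IV, the sign in the Control section turned between size factors and library totals. With library totals in place of size factors, the median of all genes shifted by 0.52 in the Control section and 0.23 in the Loaded section, and all of these medians were above 0 in both sections. In the Control section, those of the citric acid cycle (0.44), complex I (0.27), complexes II and III (0.39) and complex V (0.42) then lay below the median of all genes (0.47), as they did with size factors. The Control median of complex IV (0.71) lay above that of all genes with either scaling, and its sign held in 17 of 21 alternatives. In shares of UMIs, the 33 measured complex I genes supplied 1.41% of slow-rich and 1.16% of fast UMIs in the Control section, and 1.60% and 1.10% in the Loaded section. The slow sarcomere, fatty acid and glycolysis medians kept their sign under library totals, at 3.35, 0.92 and -1.32 in the Control section and 2.78, 1.18 and -1.16 in the Loaded section. Of 13 genes of the mitochondrial genome that were looked for, 0 were found among the measured genes, so they were not analysed here.

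The 4 largest patches were close to each other in some genes and apart in others. *Myl3* had log2 ratios over the fast spots of the section of 4.20 in the Control patch and of 4.06, 4.00 and 3.65 in the first, the second and the third Loaded patch. *Atp2a2* had 3.46, 3.54, 4.00 and 4.00, and the fast gene *Myh1* -1.93, -2.19, -2.55 and -2.43, in the same order. *Csrp3* of the slow list varied more, with 1.75, 2.59, 2.71 and 0.75, the last from 27 UMIs. *Myh4*, a gene of the rule, had -4.38 in the Control patch, -6.50 in the first and -6.84 in the third Loaded patch, but -2.16 in the second, which bordered fast spots. *Myh2* had 2.62, 2.64 and 1.84 in the Control patch and the first and second Loaded patches, but 0.46 in the third, the patch with the highest slow fraction. The glycolysis list had medians of -2.03, -1.27, -1.02 and -1.93, and the fatty acid list of 0.46, 1.14, 1.23 and 0.13. Of the 4 patches, the third Loaded patch had the lowest *Myh2* ratio and the lowest fatty acid median, although as a share of UMIs fatty acid genes were higher there (0.533%) than in fast spots (0.337%). It rested on 6 spots, of whose UMIs fibrous tissue genes supplied 2.23% and tendon genes 0.518%, against 0.429% and 0.0843% in the first Loaded patch. The part of these tissues in the difference was not tested.

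Some other lists changed along the slow fraction across all muscle spots. The values here are shares of all UMIs. On that scale, the median log2 ratio of all genes, slow-rich over fast, was 0.47 in the Control and 0.20 in the Loaded section. The other slow sarcomere genes made up 18.9 of 10000 UMIs in 804 Control spots with a slow fraction below 1%, 30.5 from 1% to 5%, 46.3 from 5% to 10%, 53.8 from 10% to 30%, and 65.9 above. The same bins gave 18.2, 39.6, 67.4, 80.5 and 93.7 in the Loaded section. Glycolysis and glycogen genes went from 457 to 149 per 10000 in the Control section and from 394 to 175 in the Loaded section, with each bin below the one before. Fatty acid genes went from 35.1 to 82.1 and from 28.5 to 96.0. In the Control section, they stayed at 35.1, 38.8 and 38.2 in the bins below a slow fraction of 10%, the last of which held 6 spots, whereas in the Loaded section they were already at 54.3 and 81.1 in the bins from 1% to 5% and from 5% to 10%. Not all lists changed in steps. In the Loaded section, complex I genes were at 168 and complex V and carrier genes at 298 per 10000 from 10% to 30%, and at 155 and 271 above.

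**Figure D5:**
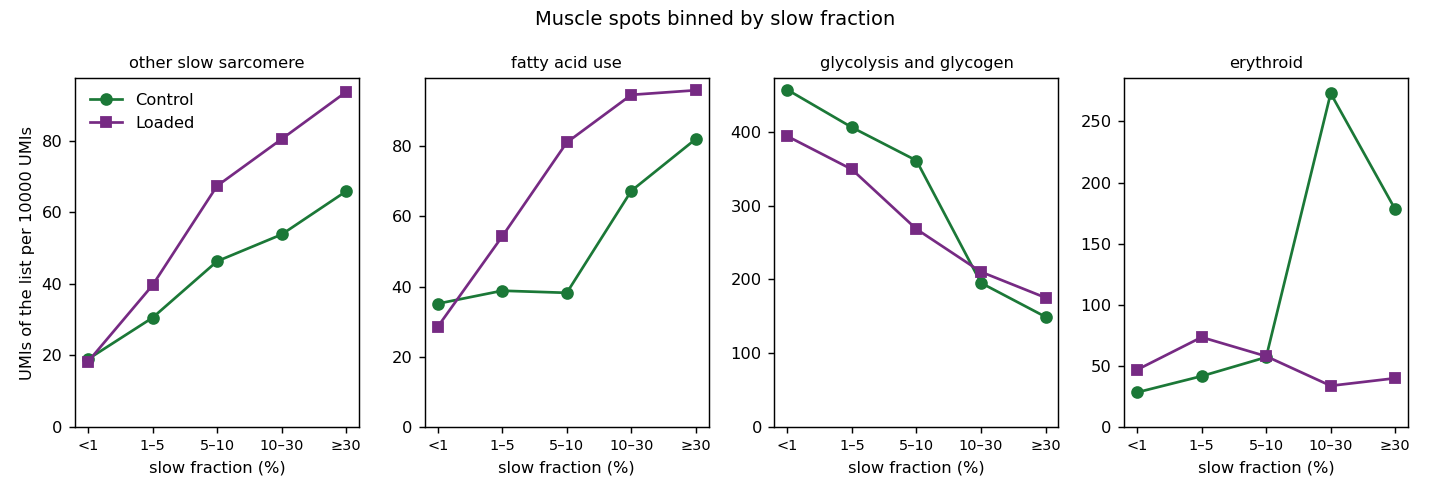
UMIs of 4 gene lists per 10000 UMIs (vertical axes, each starting at 0) in muscle spots binned by slow fraction (horizontal axis, percent), for the Control section (circles) and the Loaded section (squares). The other slow sarcomere list increases from 18.9 to 65.9 and from 18.2 to 93.7, glycolysis genes decrease in both sections, and the erythroid list is high in the slow-rich bins of the Control section only.

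Markers of blood, marrow and connective tissue differed in opposite directions in the Control and Loaded sections. Erythroid genes, of which hemoglobin *Hbb-bs* was the most abundant, supplied 2.27% of the UMIs in slow-rich and 0.294% in fast spots of the Control section, but 0.373% and 0.519% in the Loaded section. In the Control patch of 24 spots, the share was 2.77%. All 6 genes with enough UMIs were at least 2-fold higher in the Control section, beside 12.2% of all genes, and had ratios below 0 in the Loaded section, with medians of 2.41 and -0.62. Granulocyte genes had medians of 1.93 and -1.17, led by *Camp* with 85 and 83 UMIs in slow-rich spots, and 2 of 10 and 1 of 10 markers were at 0. The Control patch adjoined the bone region, and the part of marrow RNA in the Control ratios was not tested. Keeping only spots with an erythroid share below 1% left 5 Control and 84 Loaded slow-rich spots. The slow sarcomere, fatty acid and glycolysis medians were then 2.40, 0.18 and -1.40 in the Control section and 2.49, 1.04 and -1.40 in the Loaded section. In the Control members, 4036 of 4092 erythroid UMIs lay in the patch of 24 spots, so most of that patch was left out. These Control medians therefore do not describe the patch.

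Schwann cell genes had medians of 2.51 in the Control section and 0.73 in the Loaded section over 4 genes with enough UMIs. The whole list supplied 0.0532% of the UMIs of slow-rich and 0.00777% of those of fast spots in the Control section, and 0.0309% and 0.0150% in the Loaded section. The myelin gene *Mbp* had a log2 ratio of 2.98 in the Control section and of 1.04 in the Loaded section, from 27 and 42 UMIs. *Pmp22* was the most abundant gene of this list, the neurofilament genes *Nefl* and *Nefm* were at 0 in the slow-rich spots of both sections, and the part of nerve in the ratios of other genes was not tested. Endothelial genes supplied 0.122% against 0.0618% and 0.119% against 0.0695%, with the water channel *Aqp1* the most abundant. Their medians by size factors were 0.28 and 0.42 over 11 genes with enough UMIs, of which 10 and 8 had ratios above 0. Only 1 of the 11, *Flt1* (1.45 and 1.09), was at least 2-fold higher in both sections, beside 1.52% of all genes. Blocks were apart in both sections for 0 of them. Fibrous tissue genes, of which the collagen *Col1a2* was the most abundant (-0.03 and -0.71), had medians of 0.76 and -0.45 and supplied 0.789% against 0.424% in the Control section and 0.671% against 0.859% in the Loaded section. Satellite cell genes, which mark muscle stem cells, had 4 and 30 UMIs in all slow-rich spots, too few for a comparison. Chondrocyte, osteoblast and osteoclast genes each supplied less than 0.05% of the UMIs of slow-rich spots in both sections.

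Genes of immature or denervated fibers were detected at low counts. The embryonic heavy chain *Myh3* had 41 UMIs in slow-rich and 135 in fast spots of the Control section, and 45 and 14 in the Loaded section, with log2 ratios of 2.90 and 2.89. The large Control patch held only 6 UMIs of the whole list, so that nearly all Control *Myh3* UMIs came from the 3 single spots. The perinatal heavy chain *Myh8* had -2.15 and 0.09, and myogenin (*Myog*) 0.64 and 0.00. The receptor subunit *Chrna1* and the kinase *Musk*, both of the neuromuscular junction, had log2 ratios of 1.38 and 2.18, and of 1.31 and 1.39, from 13 UMIs each in the Control slow-rich spots. Of 11 genes of the denervation and atrophy list, these 2 were at least 2-fold higher in both sections, beside 1.52% of all genes, and 2, *Mstn* and *Trim63*, at least 2-fold lower, beside 2.02%, with medians of -0.21 and -0.00. The metallothionein *Mt1* of this list had -0.21 and 0.29.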

How the data were processed

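The authors deposited raw UMI counts per gene and spot (mouse FFPE probe set, Space Ranger 2.0.0, mm10 per the labels), together with spot positions. Probe libraries measure each gene through its own probes, so UMIs of different genes do not give their relative RNA levels. The slow fraction and the words "most abundant" refer to UMIs only. The members and the gene lists were chosen with earlier results of these data known. Size factors were computed per section over slow-rich and fast spots with scran 1.30.0 (R 4.3.3), which the study also used. Counts were summed per group in Python 3.11.15 (numpy 2.4.6, scipy 1.17.1, pandas 2.3.3, matplotlib 3.10.9). Genes needed 20 UMIs over both groups in each section. Log2 ratios carry exact conditional binomial intervals at 95% that cover counting error only, and 3 UMIs replaced a sum of 0. With 1 section per condition, no test was run. The genes named were the 14 rule genes, the 10 highest and 10 lowest genes by the smaller of both sections' ratios, with at least 50 UMIs and blocks apart, and from each list 2 to 5 members with the most UMIs, except that for lists of other cell types at most the most abundant was named in most cases. Further list members, including *Myh7b*, *Tbx1*, *Prox1*, *Esrrg*, *Mstn*, *Myh3*, *Chrna1* and *Musk*, were named after their values were seen. Other settings tried were TMM factors (edgeR 4.0.16), library totals, other limits for spots and genes, and leaving out patches or blocks. The calculation was tested on simulated data. No doublet caller was run on spots. Promoters came from RefSeq.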

Additional observations from a re-analysis of the deposited data

Results flagged for a closer look

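For 12 gene lists, the median log2 ratio of slow-rich over fast spots had opposite signs in the Control and Loaded sections. The difference between the sections was not tested, since there was 1 mouse per condition. The median was -0.33 in the Control and 0.63 in the Loaded section for common sarcomere genes, -0.08 and 0.40 for the citric acid cycle, -0.25 and 0.33 for complex I, -0.13 and 0.43 for complexes II and III, and -0.10 and 0.43 for complex V and the carriers. With library totals in place of size factors, these 5 medians were above 0 in both sections, and so was that of the tendon genes (0.16 and 0.47), but library totals also moved the median of all genes by 0.52 in the Control section, to 0.47, above each of these 6 Control medians. By size factors, the median was 2.41 and -0.62 for erythroid, 1.93 and -1.17 for granulocyte, 0.71 and -0.30 for macrophage and 0.37 and -0.69 for plasma cell genes. It was 0.76 and -0.45 for fibrous tissue, -0.36 and 0.25 for tendon and 0.07 and -1.18 for mural cell genes.

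Slow genes also appeared in spots that entered no comparison. Outside the bone region, 125 Control spots and 454 Loaded spots had a slow fraction of at least 10% but a rule gene share below 10%. Of the bone region spots with at least 500 UMIs, 46 of 131 in the Control section and 55 of 146 in the Loaded section had a slow fraction of at least 10%, and 1 and 0 of them also reached a rule gene share of 10%.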

How the results depend on the processing

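The number of slow-rich spots (27 Control, 94 Loaded) depended most on the limit for the rule gene share, at 83 and 334 spots with 5% and at 1 and 5 spots with 20%. The numbers of genes at least 2-fold higher (135) and lower (180) in both sections became 311 and 84 with library totals, 226 and 25 with a rule gene share of at least 20% in both groups (1 and 5 slow-rich spots, 6145 genes tested in place of 8899), 49 and 99 with at least 100 UMIs per gene (3387 genes tested), and 434 and 518 at 1.5-fold. The lower genes numbered 107 against fast spots within 500 μm of a slow-rich spot (5721 genes tested), and 114 without the largest patch of each section (3 and 38 slow-rich spots left, 8224 genes tested). Of the original 315 genes, 219 were among those with library totals, 25 among those with a rule gene share of at least 20%, 93 among those against fast spots within 500 μm 100 among those without the largest patch and 148 among those with at least 100 UMIs. Leaving out 1 of 4 blocks of slow-rich spots gave 125 to 135 higher and 175 to 184 lower genes. Of the original 315, 209 to 238 were among them. Among settings chosen after seeing the data, scaling to the common sarcomere list gave 50 and 520 (229 shared), fast spots with a rule gene share below 20% gave 103 and 162 (5559 genes tested, 83 shared), and an erythroid share below 1% per spot gave 85 lower genes (8600 genes tested, 144 shared). Signs turned for *Hoxd9* and *Gpd2* in the Loaded section, at 1.15 and 0.94 with a rule gene share of at least 20%. Of 818 values of the 20 named genes outside the rule, 170 kept their sign but lay outside the gene's counting interval. The 2 values with a turned sign also lay outside it. The values ranged, for example, over 0.08 to 2.50 for *G0s2*, 0.65 to 2.89 for *Actn2*, -6.32 to -0.75 for *Mybph* and -5.82 to -1.14 for *Mybpc2*. The cause of these changes was not tested. The medians of the slow sarcomere, fast sarcomere, slow calcium, fatty acid and glycolysis lists kept their sign in 21 of 21 alternatives in both sections, at 0.95 to 3.72, -2.24 to -0.46, 0.99 to 3.02, 0.05 to 1.29 and -2.10 to -0.43. No paired analysis was possible because each condition had 1 section, which concerns loading. Slow-rich and fast spots came from the same sections and were compared within each, and a fit over both sections, with 1 residual degree of freedom, was not run. The median gene had 7 UMIs in the Control slow-rich spots, so single ratios of such genes have wide counting intervals.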

Other observations

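Adipocyte genes had medians of -2.91 in the Control and -1.27 in the Loaded section over 6 genes with enough UMIs, of which complement factor D (*Cfd*), secreted by fat cells, had 3 UMIs in slow-rich and 1953 in fast spots of the Control section and 101 and 718 in the Loaded section. Of these 101, 86 lay in the second Loaded patch, where adipocyte genes supplied 0.350% of the UMIs, against 0.0885% in the fast spots of that section. Genes for the transport of lactate and pyruvate and for the entry of pyruvate into the citric acid cycle had medians of 0.20 and 0.52, and none of the 3 measured genes differed by 2-fold in either section. The pyruvate dehydrogenase subunit *Pdha1* had 0.20 and 0.52 and the pyruvate carrier *Mpc2* -0.71 and 0.18.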
